A study of Homo sapiens with 60 samples.

Results

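The FOS, JUN and EGR immediate early genes were 10 of the 60675 genes counted in A549, a line of human lung adenocarcinoma cells, treated with plant extracts for 24 h. The members are FOS, FOSB, FOSL1, FOSL2, JUN, JUNB, JUND, EGR1, EGR3 and IER2, each found through the 1 Ensembl ID that carries its symbol. Members FOS (chr14:75278774-75282230, plus strand), FOSL2 (chr2:28392448-28417312, plus), JUN (chr1:58780788-58784327, minus) and JUNB (chr19:12791496-12793315, plus) carry most of the results, on GRCh38 with GENCODE 29 positions. FOSB (19), JUND (19), IER2 (19), FOSL1 (11) and EGR1 (5) lie on the chromosomes given in brackets. RNA sequencing covered 60 libraries. Hot-water extracts of 6 kinds, 4 of them decoctions of several herbs (Okbyeongpung-san, Soyo-san, Guibi-tang and Saengmaek-san) and the others single herbs (Saposhnikoviae Radix and Menthae Herba), were given at 20, 100 and 500 µg/mL, with 3 libraries each. Soshiho-tang had 1 library per dose and therefore no test. The vehicle had 3 libraries, with 0.1% DMSO per the sample labels and 2% per the series text. The cells were kept in medium with serum, and all libraries were taken at 24 h. The series text says that extracts that reached 20% inhibition under 500 µg/mL had that dose as their highest, with dilutions of it below, while the labels print the same 3 doses for every extract, so the doses are given here as labelled.

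Immediate early genes are transcribed within minutes of a growth factor, stress or cytokine signal, from factors already present in the cell, and most of their RNAs decay fast. FOS and JUN proteins pair through leucine zippers to form AP-1, which binds promoters and enhancers of growth, matrix and inflammation genes, and JUN proteins can also pair with each other while FOS proteins need a JUN partner. EGR1 and EGR3 are zinc finger factors driven largely by the serum response factor with ERK-activated partners. FOSL1 and FOSL2 act as slower AP-1 subunits that lack the strong activation domain of FOS and FOSB, and JUNB and JUND are weaker or restraining partners in many settings. IER2 is a small nuclear protein induced with them.

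The start regions are shown for FOS, IER2, JUN, JUNB and FOSL2, each called in at least 1 comparison. FOS and IER2 were called lower at the top dose in the mean of the 6 extracts, a comparison added after the values were seen. JUN, JUNB and FOSL2 were called against vehicle. The IER2 and JUN calls, among others, ended when certain single libraries were left out, as given below. Each window runs from 250 bases before to 50 bases after the gene start in the RefSeq annotation of GRCh38.p14, 5′ to 3′ on the strand of the gene. Capitals mark TGACG on either strand (the core of the cAMP response element, read CGTCA on the other strand), TATAAA, the AP-1 letters TGANTCA, and TGACATCA, the variant element known from JUN.
FOS, chr14:75278578-75278877, plus strand: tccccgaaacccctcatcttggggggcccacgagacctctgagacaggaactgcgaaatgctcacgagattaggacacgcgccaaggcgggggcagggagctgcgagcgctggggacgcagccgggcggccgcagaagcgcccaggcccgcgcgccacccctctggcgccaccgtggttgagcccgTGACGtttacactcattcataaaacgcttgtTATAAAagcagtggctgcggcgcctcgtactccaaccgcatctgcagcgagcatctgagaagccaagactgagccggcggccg
IER2, chr19:13150161-13150460, plus strand: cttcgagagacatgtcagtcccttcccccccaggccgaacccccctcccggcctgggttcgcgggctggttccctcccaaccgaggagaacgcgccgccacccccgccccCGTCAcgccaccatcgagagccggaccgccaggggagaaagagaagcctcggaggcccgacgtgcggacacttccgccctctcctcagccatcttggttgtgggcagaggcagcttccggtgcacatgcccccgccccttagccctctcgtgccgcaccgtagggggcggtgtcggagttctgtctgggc
JUN, chr1:58783998-58784297, minus strand: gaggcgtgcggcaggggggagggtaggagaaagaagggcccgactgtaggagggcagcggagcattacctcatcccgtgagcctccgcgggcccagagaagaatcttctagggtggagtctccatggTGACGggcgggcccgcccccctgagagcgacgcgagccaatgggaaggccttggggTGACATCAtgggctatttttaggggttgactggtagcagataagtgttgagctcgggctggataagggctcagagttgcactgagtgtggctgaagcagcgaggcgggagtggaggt
JUNB, chr19:12791236-12791535, plus strand: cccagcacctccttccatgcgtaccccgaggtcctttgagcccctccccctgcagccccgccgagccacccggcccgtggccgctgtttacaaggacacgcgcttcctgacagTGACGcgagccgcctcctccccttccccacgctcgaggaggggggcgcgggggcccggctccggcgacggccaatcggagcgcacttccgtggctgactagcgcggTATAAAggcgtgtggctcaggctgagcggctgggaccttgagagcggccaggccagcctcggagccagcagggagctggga
FOSL2, chr2:28392608-28392907, plus strand: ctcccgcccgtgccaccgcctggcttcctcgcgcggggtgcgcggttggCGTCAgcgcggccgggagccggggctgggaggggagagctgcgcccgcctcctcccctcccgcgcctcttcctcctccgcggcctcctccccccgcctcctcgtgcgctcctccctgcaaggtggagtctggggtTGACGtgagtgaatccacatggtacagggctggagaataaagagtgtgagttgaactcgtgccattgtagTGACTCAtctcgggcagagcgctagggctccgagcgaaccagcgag
FOS held TGACG with its first base at -64 and TATAAA at -33. JUNB held the same letters at -137 and -31, and IER2 held only CGTCA, at -140. JUN held TGACATCA at -67 and TGACG at -123, and FOSL2 held TGACTCA just after its start, with TGACG at -66 and CGTCA at -201. Of 35116 promoter windows of the same length, 24.6% held TGACG, 11.5% TATAAA, 7.71% TGANTCA and 2.61% TGACATCA, on either strand. These matches describe the letters and show no binding. RefSeq windows were taken for 8 members, as FOSL1 had none in the set used and EGR3 was left out.

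Library totals ran from 18330592 to 35308791 counts. KRT8 (2657 to 3639 CPM, the count relative to the library total) and KRT18 (2229 to 2884 CPM), keratins of simple epithelium, were high in every library, and the leukocyte gene CD3E was at 0. Mitochondrially encoded genes took 10.7 to 13.9% of the counts in the first 31 libraries by library order, and 12.9 to 22.2% in the later 29. Vehicle and both herbs lay in the first 31. Okbyeongpung-san, Soshiho-tang and Soyo-san lay wholly in the later 29, so that a difference of theirs from vehicle and a difference along the order cannot be told apart. Saengmaek-san and Guibi-tang lay on both sides. In Saengmaek-san replicate 3 of each dose lay in the later 29. In Guibi-tang replicate 3 at 500 lay there, but replicates 2 and 3 did at 100 and at 20. The Guibi-tang doses are therefore spread unevenly over the order. The labels do not call this order a batch. By the library names in the labels, vehicle forms a set of its own, both herbs share another, as do Saengmaek-san with Guibi-tang and Soyo-san with Okbyeongpung-san. In every comparison of an extract with vehicle the extract and the library set therefore cannot be told apart, while the doses of an extract lie within 1 set. Of the other cell types, the summed markers stood at 0.49 to 1.29 CPM for alveolar type II cells, 1.84 to 3.61 CPM for leukocytes (mostly CD14), 0.041 to 0.44 CPM for endothelium and 30.9 to 47.5 CPM for fibroblasts (mostly COL1A1). The alveolar type II factor NKX2-1 was at 0 in the median library. Fewer cells of a type and less RNA per cell cannot be told apart in these bulk libraries.

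FOS, the inducible partner of JUN and the classic marker of recent stimulation, was lower at the top dose of Menthae Herba than at its low dose or in vehicle. Its level was 2.88, 3.15 and 2.30 CPM in the libraries at 500, against 4.25, 4.23 and 4.22 CPM at 20, without overlap. The log2 fold change of 500 against 20 was -0.62 ± 0.13 (SE, n = 3 each; edgeR quasi-likelihood test with Benjamini-Hochberg adjustment over 17256 genes, adjusted p = 0.00247). The FOS counts behind these levels were 47 to 117 per library. The call ended without Menthae Herba 500 replicate 3, the lowest of these libraries (adjusted p = 0.0568). Of the 9 members tested, FOS and FOSL2 were called in this comparison, where 2.43% of all genes tested were called. In the same comparison 1 of 4 epithelial markers, KRT8, fell (log2 fold change -0.20) and 1 of 3 tested fibroblast markers, COL1A1, rose (0.27), and their part in the result was not tested.

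FOS in the libraries of Menthae Herba at 500, at 2.30 to 3.15 CPM, also stood below every vehicle library, at 4.13, 3.23 and 3.47 CPM, with a log2 fold change of -0.41 ± 0.13 (edgeR, adjusted p = 0.0499). This call lies at the threshold. It ended without vehicle replicate 1 (adjusted p = 0.269), without vehicle replicate 3 (0.0884), without Menthae Herba 500 replicate 1 (0.118) and without Menthae Herba 500 replicate 3 (0.296). It also ended in 5 of 8 fits with other settings, among them no filter on low counts (0.158) and DESeq2 (0.0882). FOS and FOSL2 were again the members called, against 6.77% of all genes.

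The same direction between the doses appeared in 3 of the decoctions without a call. FOS had 3.31, 3.17 and 3.33 CPM in Soyo-san at 500, against 4.14, 4.20 and 4.49 CPM at 20, a log2 fold change of -0.39 ± 0.13 (edgeR, adjusted p = 0.234). In Okbyeongpung-san it had 4.01, 3.03 and 4.12 CPM at 500, against 4.87, 4.95 and 4.54 CPM at 20 (-0.39 ± 0.13; adjusted p = 0.767). These libraries did not overlap between the doses in either decoction. In Guibi-tang FOS had 3.73, 4.70 and 3.11 CPM at 500, against 5.30, 4.48 and 4.77 CPM at 20, with overlap (-0.40 ± 0.12; adjusted p = 0.123).

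In the remaining extracts the FOS levels of the doses were close. The log2 fold change of 500 against 20 was -0.06 (95% interval -0.30 to 0.19) in Saposhnikoviae Radix and -0.07 (-0.32 to 0.18) in Saengmaek-san. The change in Menthae Herba minus that in Saposhnikoviae Radix was -0.56 ± 0.18, which did not pass over all genes (edgeR, adjusted p = 0.358). By edgeR 0 members were called in each of the 5 tests of a difference between extracts in their dose change, where 0.197% of all genes were called for Menthae Herba against Saposhnikoviae Radix, 0.296% for Saengmaek-san against Guibi-tang, 0.029% for Soyo-san against Okbyeongpung-san, 0.296% for Soyo-san against Menthae Herba and 0.0464% for Okbyeongpung-san against Saposhnikoviae Radix. At an unadjusted p under 0.05 there were 3 members for Menthae Herba against Saposhnikoviae Radix and 2 for Saengmaek-san against Guibi-tang. Soyo-san against Menthae Herba had 1 and the others 0. Of the 17256 genes tested, 923, 1020 and 983 had such a p in the comparisons just named. Soyo-san against Okbyeongpung-san had 773 such genes and Okbyeongpung-san against Saposhnikoviae Radix 510. DESeq2 called 1 member, FOSL2 for Saengmaek-san against Guibi-tang.

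As the mean of the 6 extracts, a comparison added after the values were seen, FOS was lower at 500 than at 20 by a log2 fold change of -0.32 ± 0.051 (edgeR, adjusted p = 2.84e-05), and the estimate lay below 0 in 6 of 6 extracts. The call held in all 36 fits that left out 1 library, with adjusted p up to 9.16e-05. The epithelial markers KRT8 (-0.10) and KRT18 (-0.09), 2 of 4, fell in the same comparison, and their part was not tested. IER2 was the other member called, at -0.08 ± 0.023 (adjusted p = 0.0337), and 3.22% of all genes were called. The IER2 call ended in 15 of the 36 fits that left out 1 library, with adjusted p up to 0.0735 without Saengmaek-san 500 replicate 2.

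The FOS means at 20 µg/mL lay above vehicle in 6 of 6 extracts. They ran from 4.24 ± 0.02 CPM in Menthae Herba to 4.85 ± 0.42 CPM in Guibi-tang, against 3.61 ± 0.47 CPM in vehicle (SD, n = 3 each). The libraries of Guibi-tang at 20, at 5.30, 4.48 and 4.77 CPM, all lay above those of vehicle, and this difference was called (log2 fold change 0.49 ± 0.12; edgeR, adjusted p = 0.0248). It ended in 5 of 6 fits that left out 1 library, with adjusted p up to 0.181 without vehicle replicate 2. For the mean of all 18 extract and dose groups against vehicle, a comparison likewise added afterwards, FOS showed 0.21 ± 0.088 and was not called (adjusted p = 0.186).

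**Figure D1:**
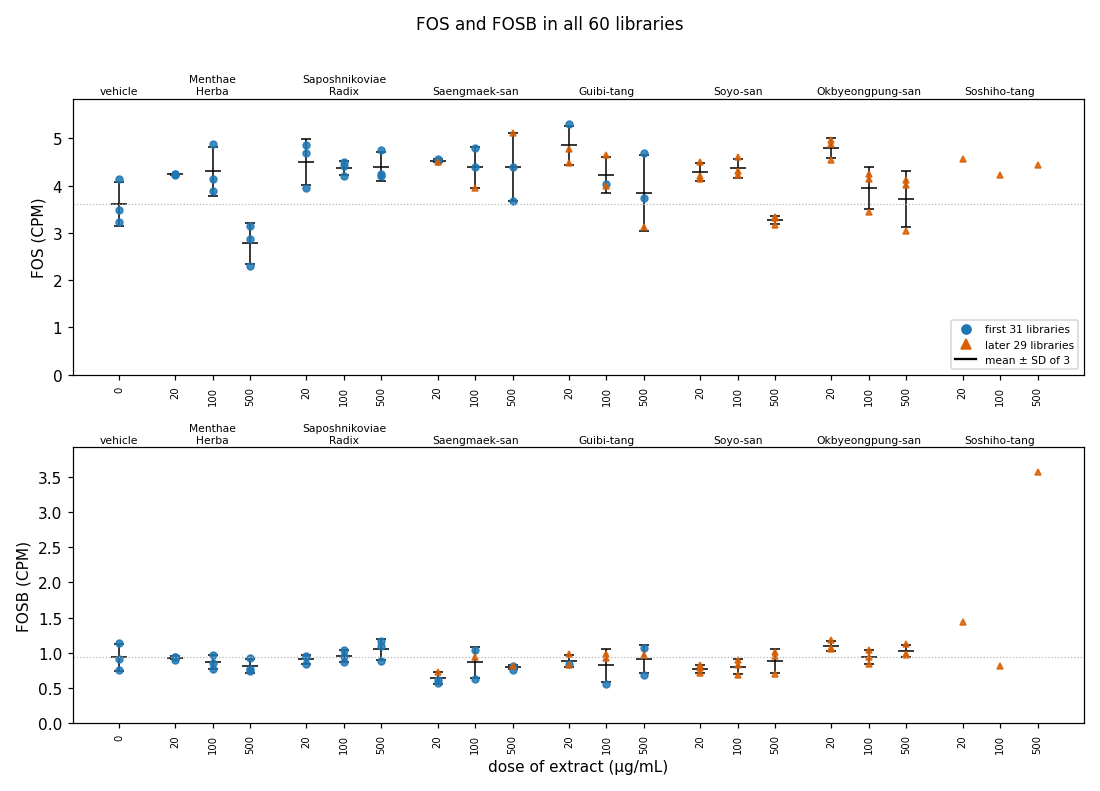
FOS and FOSB levels in CPM (vertical axis, from 0) in each of the 60 libraries, by extract and dose in µg/mL. Points are libraries, marked by their place in the library order, bars are mean ± SD of 3, and the dotted line is the vehicle mean. FOS is lowest in Menthae Herba at 500 (2.30 to 3.15 CPM), and FOSB stands at 3.56 CPM in the 1 library of Soshiho-tang at 500.

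FOSB, the close relative of FOS with the same activation domain, was rare and showed no called change among the 6 tested extracts. Its group means ran from 0.640 ± 0.083 CPM in Saengmaek-san at 20 to 1.099 ± 0.074 CPM in Okbyeongpung-san at 20, against 0.934 ± 0.19 CPM in vehicle. The counts behind these levels were 13 to 36 per library, so the intervals are wide. At 500 of Menthae Herba against 20 the 95% interval of the log2 fold change was -0.73 to 0.29.

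FOSL2, a FOS-family subunit that forms long-lived AP-1 complexes, was below vehicle in most groups. Its mean lay under the vehicle mean in 17 of 18 extract and dose groups, all set against the same 3 vehicle libraries. In Menthae Herba at 500 it had 120, 125 and 118 CPM, against 143, 139 and 141 CPM in vehicle, a log2 fold change of -0.26 ± 0.038 (edgeR, adjusted p = 5.17e-06). This call held without each library in turn, with adjusted p up to 3.08e-04. FOSL2 also fell in Menthae Herba at 500 against its own 20, where it had 137, 134 and 137 CPM (-0.19 ± 0.039; adjusted p = 0.00159), and there the call ended without the filter on low counts (adjusted p = 0.0652).

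Among the decoctions at 500, FOSL2 fell in Soyo-san, with 116, 116 and 126 CPM (log2 fold change against vehicle -0.21 ± 0.038; edgeR, adjusted p = 3.66e-04). This call held without each library in turn, with adjusted p up to 0.0117 without Soyo-san 500 replicate 2, and with a term for the library order (-0.16; adjusted p = 0.00822). It fell in Saengmaek-san, with 129, 133 and 111 CPM (-0.18 ± 0.038; adjusted p = 0.0115), where the lowest value is the library of the later 29. That call ended without vehicle replicate 1 (adjusted p = 0.0585), vehicle replicate 3 (0.0763) or Saengmaek-san 500 replicate 3 (0.132).

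FOSL2 fell in Okbyeongpung-san at 500, with 131, 125 and 122 CPM (log2 fold change -0.15 ± 0.038; edgeR, adjusted p = 0.0169). The call ended in 4 of 6 fits without 1 library, with adjusted p of 0.0631 without vehicle replicate 1, 0.0633 without vehicle replicate 3, 0.0898 without Okbyeongpung-san 500 replicate 2 and 0.113 without its replicate 3, and with the term for the library order (-0.10; 0.103). Guibi-tang at 500 had 147, 146 and 131 CPM, which lie on both sides of vehicle. Its FOSL2 was higher at 500 than at 20, where it had 127, 118 and 120 CPM, and that log2 fold change of 0.14 ± 0.039 did not pass (adjusted p = 0.0631). The 131 CPM at 500 and the 118 and 120 CPM at 20 are from the later 29 libraries. With the term for the library order this change was 0.12 (edgeR, adjusted p = 0.0854).

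JUNB, a JUN-family subunit that often restrains JUN, was above vehicle in the mean of all 18 extract and dose groups. In Soyo-san at 500 it had 66.3, 71.8 and 67.3 CPM, against 56.8, 56.1 and 60.2 CPM in vehicle, a log2 fold change of 0.28 ± 0.070 (edgeR, adjusted p = 0.00849). In Okbyeongpung-san at 500 it had 71.4, 68.3 and 67.6 CPM (0.28 ± 0.070; adjusted p = 0.0163). The libraries of both decoctions lay above all vehicle libraries. The Soyo-san JUNB call ended without vehicle replicate 2 (adjusted p = 0.0509), and the Okbyeongpung-san call without vehicle replicate 1 (0.0757), vehicle replicate 2 (0.0905) or Okbyeongpung-san 500 replicate 1 (0.0878).

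JUNB was among the members that differed along the library order. The term for that order, estimated from the Saengmaek-san and Guibi-tang groups on both sides of it, was 0.19 ± 0.032 on the log2 scale for the later 29 minus the first 31 (edgeR, adjusted p = 2.00e-06). With the term in the fit, the JUNB changes against vehicle were 0.09 in Soyo-san at 500 (adjusted p = 0.362) and 0.08 in Okbyeongpung-san at 500 (adjusted p = 0.403). With the same term JUNB was called higher than vehicle in 7 of 18 groups, among them Saposhnikoviae Radix at 500 (0.20; adjusted p = 0.0103). The number without the term was also 7, but only 2 groups, Saengmaek-san at 100 and Saposhnikoviae Radix at 20, were called in both fits.

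At 500 of Saposhnikoviae Radix JUNB had 71.2, 68.2 and 66.1 CPM, all above vehicle, which without the term gave 0.20 ± 0.070 and no call. At 20 of Saposhnikoviae Radix it had 66.3, 75.1 and 72.6 CPM, which overlap the levels at 500. Over the mean of the 6 extracts JUNB at 500 against 20 was -0.09 ± 0.029 and was not called (edgeR, adjusted p = 0.0756). With the order term JUNB was called there (-0.08; adjusted p = 0.0139), and so was JUN (0.08; adjusted p = 0.0413, against 0.0881 without the term).

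JUN, the founding AP-1 subunit and target of the JUN kinases, was called in 1 comparison without the order term. In Soyo-san at 500 it had 33.4, 36.6 and 34.6 CPM, all above the vehicle libraries at 29.2, 29.4 and 31.4 CPM (log2 fold change 0.25 ± 0.063; edgeR, adjusted p = 0.00904). The call ended without vehicle replicate 1 (adjusted p = 0.0543), without Soyo-san 500 replicate 2 (0.0515) and with the term for the library order (0.18; adjusted p = 0.0824). Against Soyo-san at 20, where JUN had 29.2, 31.3 and 28.6 CPM, it showed 0.22 ± 0.064 and was not called (adjusted p = 0.122).

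Counted by comparison at 500 against vehicle, Soyo-san had 3 members called of 9, where 6.03% of all genes were called. Okbyeongpung-san had 2 (3.39% of all genes) and Saengmaek-san 1 (0.614%). Saposhnikoviae Radix (1.56%) and Guibi-tang (4.42%) had 0 called by edgeR and 0 by DESeq2, with 3 and 2 members at an unadjusted p under 0.05. Such a p was met by 2399 and 2928 of the 17256 genes tested. The lists of called genes in these comparisons share the vehicle libraries. The median log2 fold change of the 9 members ran from -0.19 in Menthae Herba to 0.05 in Saposhnikoviae Radix, and that of all genes tested was 0 in Menthae Herba and at most 0.0069 in the others.

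**Figure D2:**
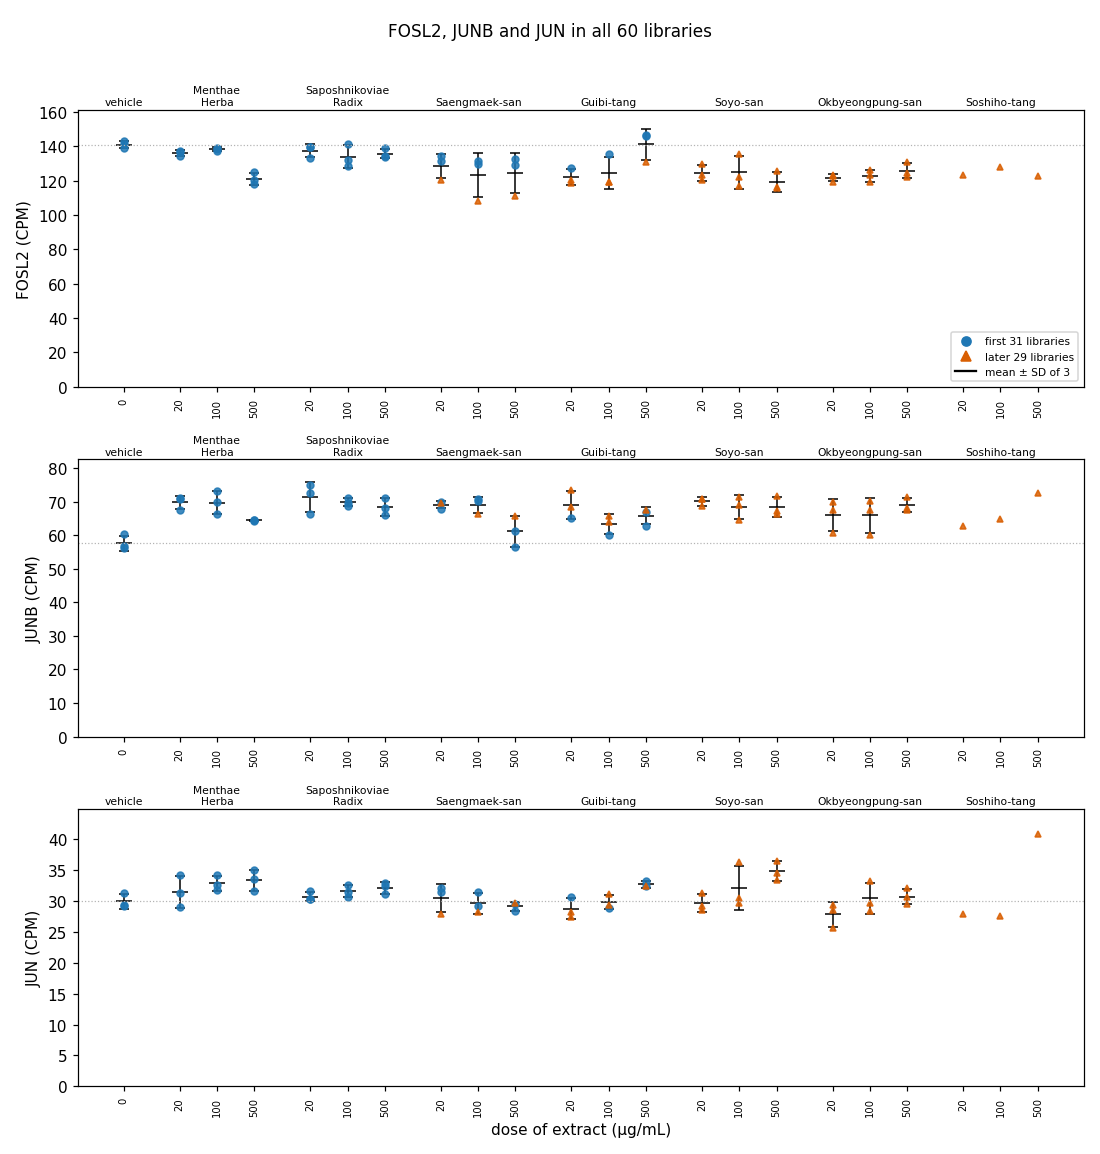
FOSL2, JUNB and JUN levels in CPM (vertical axes, from 0) in each of the 60 libraries, by extract and dose in µg/mL. Points are libraries, marked by their place in the library order, bars are mean ± SD of 3, and the dotted lines are the vehicle means. FOSL2 lies mostly under its vehicle mean of 141 CPM and JUNB mostly above its vehicle mean of 57.7 CPM.

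The members called against vehicle at 100 were JUNB in Saengmaek-san (log2 fold change 0.31; 0.666% of all genes called), FOSL2 and JUNB in Soyo-san (-0.15 and 0.28; 1.77%) and FOSL2 in Okbyeongpung-san (-0.17; 1.37%). Menthae Herba (0.974%), Saposhnikoviae Radix (0.666%) and Guibi-tang (1.41%) had 0 called at 100 by edgeR and 0, 1 and 1 by DESeq2. At an unadjusted p under 0.05 they had 3, 5 and 3 members, and 1975, 1748 and 2615 of all 17256 genes tested. At 20 the members called were JUNB in Saposhnikoviae Radix (0.28; 0.991%), FOS, FOSL2 and JUNB in Guibi-tang (0.49, -0.16 and 0.31; 1.35%), FOSL2 and JUNB in Soyo-san (-0.14 and 0.32; 1.99%) and FOSL2 in Okbyeongpung-san (-0.17; 1.09%).

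Menthae Herba (0.382%) and Saengmaek-san (0.452%) had 0 members called at 20 by edgeR and 1 each by DESeq2. At an unadjusted p under 0.05 they had 3 and 6 members, and 1697 and 1537 of all 17256 genes tested. Each call at 100 or 20 was lost in at least 1 fit without 1 library. With the term for the library order 8 of these 11 calls ended. JUNB then stood at 0.09 in Soyo-san at 100 (adjusted p = 0.434), 0.13 in Soyo-san at 20 (0.208) and 0.18 in Guibi-tang at 20 (0.0642). FOSL2 stood at -0.10 in Soyo-san at 100 (0.139), -0.09 in Soyo-san at 20 (0.238), -0.12 in Okbyeongpung-san at 100 (0.0599) and at 20 (0.0504) and -0.12 in Guibi-tang at 20 (0.0724). The calls that held were JUNB in Saengmaek-san at 100 and in Saposhnikoviae Radix at 20, and FOS in Guibi-tang at 20 (adjusted p = 0.0496). JUNB in Soyo-san at 20 was lost in 1 of 6 such fits, without vehicle replicate 2 (adjusted p = 0.0594), and FOSL2 in Soyo-san at 20 in 6 of 6. Between 100 and 20 of the same extract 0 members were called by edgeR and 0 by DESeq2. Of all genes, 0.029% were called in Menthae Herba, 0.0058% each in Guibi-tang and Soyo-san and 0.0% in the others. FOS in Okbyeongpung-san was the 1 member at an unadjusted p under 0.05. Of the 17256 genes tested, 453 had such a p in that extract.

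Over the mean of the 18 extract and dose groups against vehicle, FOSL2 was lower (log2 fold change -0.13 ± 0.027; edgeR, adjusted p = 0.00167) and JUNB higher (0.24 ± 0.051; adjusted p = 0.00313), where 3.97% of all genes were called. The FOSL2 call held without each library in turn, with adjusted p up to 0.035 without vehicle replicate 1. The JUNB call ended without vehicle replicate 1 (adjusted p = 0.0528) or vehicle replicate 2 (0.076). With the term for the library order FOSL2 stood at -0.11 (adjusted p = 0.00423) and JUNB at 0.15 (adjusted p = 0.0102). In that fit FOSL1 (-0.41; edgeR, adjusted p = 2.04e-05) and EGR1 (-0.59; 0.0182) were called lower too. Without the term neither was called (FOSL1 -0.17, adjusted p = 0.42; EGR1 -0.43, 0.145).

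FOSL1, the FOS-family subunit known for RAS and ERK-driven lung carcinoma cells, and JUND, the most constitutive JUN protein, differed along the library order with the lowest adjusted p of the 9 members. The order term was 0.49 ± 0.054 for FOSL1 (edgeR, adjusted p = 3.35e-10) and 0.37 ± 0.041 for JUND (adjusted p = 3.69e-10), higher in the later 29, where 43.7% of all genes were called. Within Saengmaek-san the later libraries of FOSL1 had 32.7 to 33.2 CPM (n = 3), against 22.9 to 27.4 CPM in the first 31 (n = 6). Within Guibi-tang they had 25.97 to 31.9 CPM (n = 5), against 21.4 to 25.2 CPM (n = 4). These ranges did not overlap in either decoction.

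JUND showed the same split, with 70.2 to 74.7 CPM in the later libraries of Saengmaek-san, against 56.6 to 69.7 CPM in the first 31. In Guibi-tang it had 66.2 to 71.4 CPM in the later libraries, against 53.3 to 60.4 CPM. FOSB was also called (0.38 ± 0.16; adjusted p = 0.0485), while EGR1 (0.34 ± 0.15; adjusted p = 0.0698), FOSL2 (-0.05; 0.057), FOS (0.07; 0.524), JUN (0.07; 0.141) and IER2 (-0.06; 0.162) were not.

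The FOSL1 comparison with vehicle took another sign in Soyo-san at 500 and 20 and in Okbyeongpung-san at 500 once the order was in the fit. The Okbyeongpung-san value without the term was only 0.02. In Soyo-san at 100 and in Okbyeongpung-san at 100 and 20 the estimate lay below 0 in both fits. Without the term no FOSL1 comparison with vehicle was called. In Saposhnikoviae Radix at 500, where all libraries and the vehicle lie in the first 31 but in different library sets, FOSL1 had 25.1, 23.5 and 22.9 CPM, against 29.6, 28.7 and 33.2 CPM in vehicle, without overlap, and the log2 fold change of -0.40 ± 0.15 was not called (edgeR, adjusted p = 0.161). In Soyo-san at 500 it had 35.4, 32.5 and 33.6 CPM, and its log2 fold change against vehicle was 0.19 without the term and -0.30 with it (adjusted p = 0.0362).

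With the term FOSL1 was called lower than vehicle in 15 of 18 groups, in a fit where all 18 share the 3 vehicle libraries. With only the first 31 libraries in the fit, Saposhnikoviae Radix at 500 gave -0.40 ± 0.080 (edgeR, adjusted p = 0.00186) and Menthae Herba at 500 gave -0.20 ± 0.080 (0.0905). Between 500 and 20 of an extract FOSL1 was not called, and the mean over the 6 extracts was 0.03 (95% interval -0.09 to 0.15). JUND with the term lay between -0.10 and 0.11 on the log2 scale in the 18 groups and was not called.

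**Figure D3:**
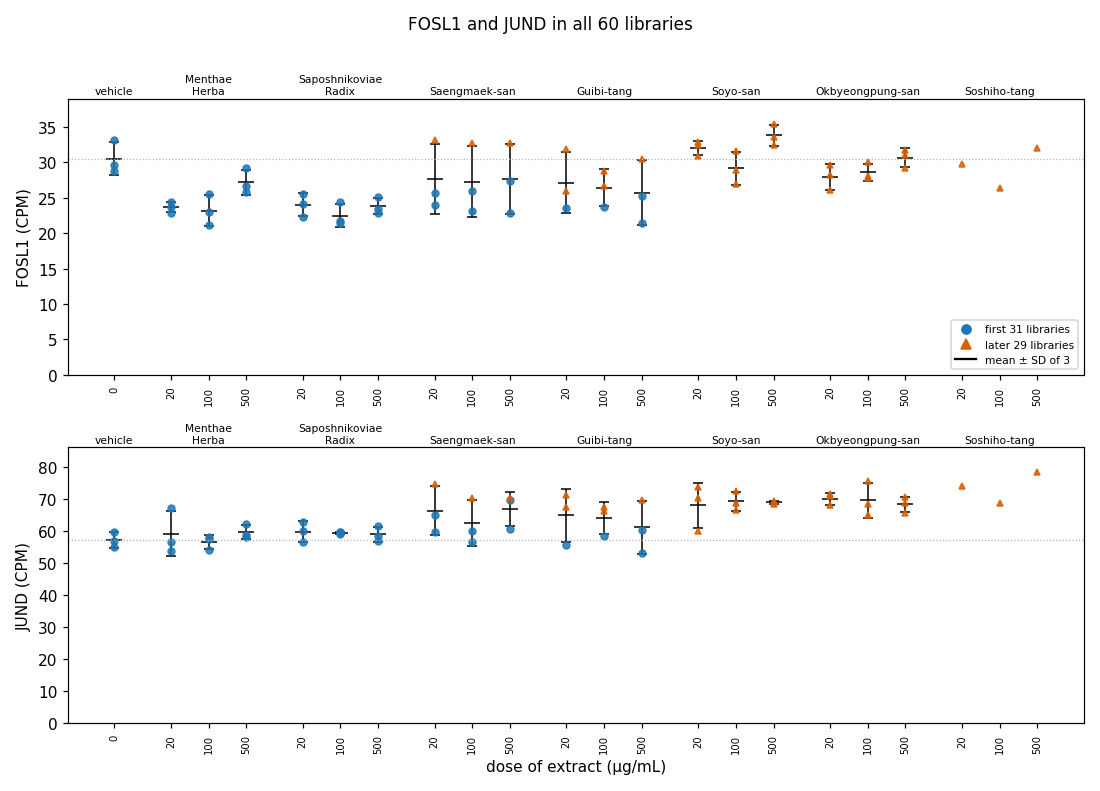
FOSL1 and JUND levels in CPM (vertical axes, from 0) in each of the 60 libraries, by extract and dose in µg/mL. Points are libraries, bars are mean ± SD of 3, and the dotted lines are the vehicle means. In Saengmaek-san and Guibi-tang the triangles, which are the later 29 libraries, stand above the circles for FOSL1, at 32.7 to 33.2 CPM against 22.9 to 27.4 CPM in Saengmaek-san and at 25.97 to 31.9 CPM against 21.4 to 25.2 CPM in Guibi-tang.

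EGR1, a zinc finger factor that growth signals induce alongside FOS, was rare at 24 h. Its mean was under that of vehicle in all 18 groups, from 0.824 ± 0.33 CPM in Okbyeongpung-san at 500 to 1.22 ± 0.31 CPM in Menthae Herba at 500, against 1.37 ± 0.21 CPM in vehicle. In Okbyeongpung-san at 500 the libraries had 1.19, 0.540 and 0.745 CPM, against 1.51, 1.13 and 1.46 CPM in vehicle. No comparison with vehicle was called (log2 fold changes -0.71 to -0.19; edgeR, adjusted p from 0.109 upwards). The unadjusted p was under 0.05 in 6 of these 18 comparisons, and DESeq2 called 0 of them.

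With the order term EGR1 was called lower in Okbyeongpung-san at 500 (-1.06 ± 0.29; edgeR, adjusted p = 0.00939), at 100 and at 20, and in Guibi-tang at 500 (-0.75; adjusted p = 0.041). Between the doses of an extract EGR1 was not called. EGR3, a related factor induced further downstream, did not pass the filter on low counts. It was at 0 in 35 of 60 libraries and had at most 5 counts (0.169 CPM). A count of 0 allows up to 3 counts, which is 0.085 to 0.164 CPM by library, so no level of EGR3 could be told from another at this depth.

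IER2, on chromosome 19 like JUNB, had means that ran from 52.99 ± 4.6 CPM in Soyo-san at 500 to 64.2 ± 0.51 CPM in Menthae Herba at 100, against 56.6 ± 2.5 CPM in vehicle, and no comparison of an extract group with vehicle was called. In Menthae Herba it had 57.8, 60.02 and 54.9 CPM at 500, against 64.2, 61.6 and 64.1 CPM at 20, without overlap. The log2 fold change was -0.15 ± 0.056 and was not called (edgeR, adjusted p = 0.175). It passed with the first 31 libraries alone in the fit (adjusted p = 0.0387) and with the 2 groups alone (0.0388).

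**Figure D4:**
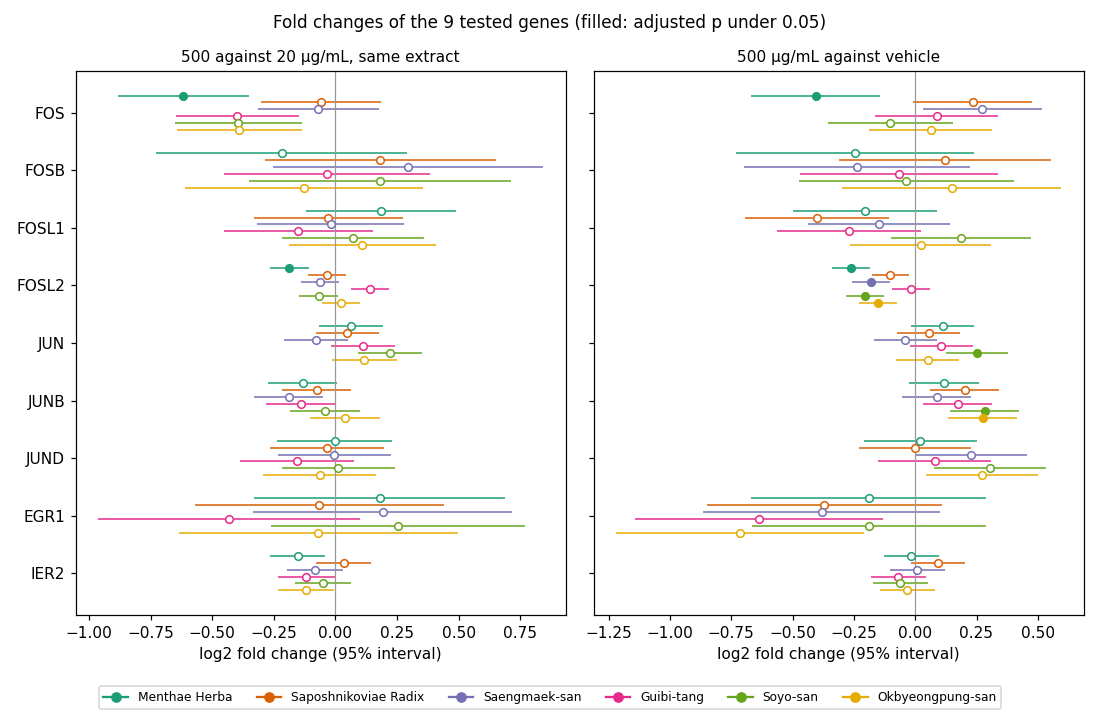
Log2 fold changes of the 9 tested members with 95% intervals (horizontal axis), for 500 against 20 µg/mL of the same extract on the left and for 500 µg/mL against vehicle on the right, 1 colour per extract. Filled points passed at an adjusted p under 0.05. FOS and FOSL2 in Menthae Herba (-0.62 and -0.19) are the filled points on the left, and the filled points on the right belong to FOS, FOSL2, JUN and JUNB.

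Members varied together to different degrees between doses. Over the 18 group means of log2 CPM, each centred on its extract, FOS followed IER2 most closely (Pearson r = 0.87) and ran against FOSL1 (-0.72) and JUN (-0.70). These points come from the same libraries, and no test was made. Outside the members, and among 10836 genes of 5 CPM or more, the genes most like FOS were SCG2 (r = 0.929), which encodes a secretory granule protein, ZNF703 (0.923) and MALL (0.906). Without the centring NR4A1, an orphan nuclear receptor of the immediate early class, came first (0.896).

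Among the genes most like JUN were TNIP1 (0.909), which restrains NF-kB signalling, and the chemokine gene CCL2 (0.909). The genes most like FOSL1 were RHPN1 (0.833), BMI1 (0.828) and CAP2 (0.812), and for EGR1 C2orf74 (0.88), PHLDA1 (0.763) and CCN1 (0.754), the last a matricellular gene of the immediate early class. The 18 points of each correlation are 3 doses of 6 extracts.

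Among other immediate early genes, a list chosen with earlier results of these data known, the NR4A orphan nuclear receptors fell at the top dose of Menthae Herba. Of 28 tested, 0 rose and 5 fell at 500 against 20, led by NR4A1 (log2 fold change -1.36 ± 0.092; edgeR, adjusted p = 2.54e-15), NR4A3 (-0.98) and NR4A2 (-0.70). The list's median was -0.08, and that of all genes -0.001. In this comparison 2.43% of all genes were called, 155 higher and 265 lower. In Soyo-san at 500 against 20, where 0 members and 0.614% of all genes were called, 1 rose and 4 fell, led by NR4A2 (-0.61), NR4A3 (-0.58) and NR4A1 (-0.56). In Guibi-tang, with 0 members and 0.997% of all genes called, 2 rose and 2 fell, led by NFKBIZ (0.47), an NF-kB cofactor, NR4A1 (-0.32) and CCN1 (-0.25). By edgeR 0 members were called between 500 and 20 in Saposhnikoviae Radix (0.0811% of all genes), Saengmaek-san (0.0%) and Okbyeongpung-san (0.0985%). At an unadjusted p under 0.05 there were 0, 1 and 2 members in these 3 extracts, 3 in Guibi-tang and 2 in Soyo-san. Of the 17256 genes tested, 615, 469 and 663 had such a p in these 3 extracts, 1799 in Guibi-tang and 1282 in Soyo-san. DESeq2 called 1 member among the 5 extracts, FOSL2 in Guibi-tang.

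Against vehicle at 500 the other immediate early genes moved both ways. Of 28 tested, 3 rose and 5 fell in Menthae Herba, where 6.77% of all genes were called, 3 and 5 in Saposhnikoviae Radix (1.56%), 5 and 2 in Saengmaek-san (0.614%), 7 and 6 in Guibi-tang (4.42%), 8 and 7 in Soyo-san (6.03%) and 7 and 6 in Okbyeongpung-san (3.39%). KLF2, a Krüppel-like factor known from endothelium and lymphocytes, rose in all 6, with log2 fold changes from 0.62 in Menthae Herba to 1.07 in Soyo-san. In Menthae Herba NR4A1 (-1.35) and NR4A3 (-1.08) led the genes that fell. These comparisons share the vehicle libraries.

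ERK feedback genes, which dampen the signal that induces FOS and EGR1, fell in part. Of 13 tested, 0 rose and 3 fell in Menthae Herba at 500 against vehicle (6.77% of all genes called), the phosphatases DUSP5 (log2 fold change -0.42 ± 0.043) and DUSP1 (-0.20) and the inhibitor SPRY4 (-0.38). The same 3 genes fell in Soyo-san (-0.34, -0.34 and -0.30; 6.03% of all genes called) and in Okbyeongpung-san (-0.39, -0.35 and -0.21; 3.39%), in the order DUSP5, DUSP1 and SPRY4. In Guibi-tang (4.42%) DUSP4 rose (0.15) and SPRY4 fell (-0.21). Of the EGF receptor and its ligands, 6 tested, TGFA rose in Menthae Herba (0.40) and 4 rose in Soyo-san, led by TGFA (0.47), AREG (0.28) and EREG (0.26). Of 11 kinases and ligases of the pathway, 1 was called lower in the mean of the 6 extracts at 500 against 20. This was MAP2K4 (-0.06), which activates JUN kinases, in a comparison where 3.22% of all genes were called.

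Known AP-1 targets moved both ways. Of 12 tested, 2 rose and 5 fell in Menthae Herba at 500 against vehicle (6.77% of all genes called), led by the urokinase receptor gene PLAUR (log2 fold change -0.37), the hyaluronan receptor gene CD44 (-0.34) and the cytokine gene IL11 (-0.30). In Soyo-san (6.03%) 4 rose and 2 fell, with the integrin ITGA2 (0.45) among those that rose. Guibi-tang (4.42%) and Okbyeongpung-san (3.39%) each had 4 higher and 2 lower as well, Saposhnikoviae Radix (1.56%) 2 and 2 and Saengmaek-san (0.614%) 1 and 1. The list's median was -0.18 in Menthae Herba and 0.13 in Soyo-san, where the median of all genes was 0 and 0.0069.

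The next 3 lists are given at 500 against vehicle. Of all genes, 6.77% were called there in Menthae Herba, 6.03% in Soyo-san and 4.42% in Guibi-tang. Of 8 other bZIP partners, MAFK, a small MAF protein, was called lower in Menthae Herba (log2 fold change -0.35) and in Soyo-san (-0.19). ATF2 was called higher in Guibi-tang (0.19). Of 11 SRF, TCF and CREB factors, MEF2D was called lower in Menthae Herba (-0.24) and ELK3 higher in Soyo-san (0.23). Of 7 EGR corepressors and targets, PTGES, a prostaglandin E synthase, was lower in Menthae Herba (-0.28) and higher in Guibi-tang (0.47), and NAB2, a corepressor of EGR1, was lower in Soyo-san (-0.32). Markers moved with these lists at 500 of Menthae Herba against vehicle, where 2 of 4 epithelial markers fell, KRT8 (log2 fold change -0.27) and KRT18 (-0.29), and 1 of 3 tested fibroblast markers, COL1A1 (0.39), rose. KRT8 also fell at 500 against vehicle in Guibi-tang (-0.29, with KRT18 at -0.23), Soyo-san (-0.27, where CDH1 rose by 0.19) and Okbyeongpung-san (-0.27). Their part in the results was not tested.

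Soshiho-tang at 500, with 1 library and no replicate check, stood apart in FOSB. FOSB had 82 counts there, 3.56 CPM (95% Poisson interval 2.83 to 4.42), against 1.14, 0.906 and 0.761 CPM in vehicle, and at most 1.18 CPM in the 57 libraries of vehicle and the other extracts. The libraries at 20 and 100 had 1.43 and 0.809 CPM, so the level did not follow the dose between them. JUN stood at 40.8 CPM (38.3 to 43.5), above the 36.6 CPM that was highest among the 57, and had 27.8 and 27.5 CPM at 20 and 100. These intervals cover counting error only.

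JUND (78.3 CPM, against 54.9 to 59.8 CPM in vehicle) and EGR1 (2.00 CPM, against 1.13 to 1.51 CPM in vehicle) were also above all 57, where the highest values were 75.6 and 1.55 CPM, but these lie within their 95% Poisson intervals (74.7 to 81.95 and 1.46 to 2.66 CPM). JUNB had 72.6 CPM. FOS (4.43 CPM) and FOSL2 (123 CPM) lay inside the range of the 57. Of all genes tested, 9.75% lay outside the range of the 57 in this library, and 6.39% were highest there of all 60. FOSB alone of the 9 tested members passed 1.5-fold over the vehicle mean, which 5.71% of all genes did while standing above every vehicle library.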

How the data were processed

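The authors deposited RSEM expected counts per gene for 60 libraries, per the submitters' processing notes made with FastQC 0.11.9, Trim Galore 0.6.5, STAR 2.7.3a and RSEM 1.3.3 on hg38. The annotation release and the strand setting of counting are not given in the sources used here. Per the labels' protocols libraries were directional, from 1 µg RNA, read as 100 bp pairs. The expected counts of 60675 genes were rounded (10.5% of values were not whole), and library totals had a median of 24202024. CPM values are counts relative to the total over all genes, mitochondrially encoded ones included, and serve as levels within a gene.

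Tests used edgeR 4.0.16 (R 4.3.3, limma 3.58.1) quasi-likelihood fits on 57 libraries in 19 groups, with TMM scaling and filterByExpr (17256 genes tested, 9 of 10 members), and Benjamini-Hochberg adjustment over all genes within each comparison. Fold changes are log2, with standard errors, and the threshold was an adjusted p of 0.05. Soshiho-tang was left out of the fit. Shares of all genes called are given for edgeR and not for DESeq2. Alternatives were DESeq2 1.42.0, its size factors, no filter, only the groups compared, a replicate block, a term for or a split by the library order, and each library left out. The methods were tested on simulated data for Menthae Herba at 500 against 20, without a shift along the library order. There 48.5% and 61.8% of genes were called at a true log2 change of -0.5 and 0.5. At -0.25 and 0.25 it was 15.2% and 20.6%, so a missing call does not show that a small change is absent.

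The members, lists and tests were chosen with earlier results of these data known. Named were all 10 members, the 3 genes most like each of FOS, JUN, FOSL1 and EGR1 (5 CPM or more), and up to 3 called genes with the largest change per list and comparison, with a few others named where a count was small, after their values were seen. The labels do not say whether replicates are separate cultures, and the p-values speak to the spread among these libraries alone, which may be technical. Replicate numbers paired libraries only in Saengmaek-san 500 against 20, where all 3 correlations of same-numbered libraries' deviations were over 0.1 (0.117 to 0.348), a hint from the data and not from the labels. Counting intervals and floors cover counting error only. Some genes that the naming rule selected are not reported here.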

Additional observations from a re-analysis of the deposited data

Results flagged for a closer look

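In the 1 library of Soshiho-tang at 500 µg/mL, which enters no test, 4 members stood above all 3 vehicle libraries beyond its own counting error. The rule is a lower 95% Poisson limit above the highest vehicle library, and the share of all genes that meet it was not taken. The number 4 therefore does not set the members apart from other genes. JUND met it in the libraries at 20 and 100 too (lower limits 70.6 and 65.6 CPM), and JUNB at 100 (61.7 CPM). At 500 FOSB had 3.56 CPM, against 0.761 to 1.14 CPM in vehicle. JUN had 40.8 CPM, against 29.2 to 31.4 CPM in vehicle. JUNB had 72.6 CPM, against 56.1 to 60.2 CPM in vehicle, and 4 of the other 57 libraries were higher still. JUND had 78.3 CPM, against 54.9 to 59.8 CPM in vehicle. The library at 500 is of the later 29. There FOSB (log2 difference 0.38 ± 0.16), JUNB (0.19 ± 0.032) and JUND (0.37 ± 0.041) were called higher in Saengmaek-san and Guibi-tang too (edgeR). The part of the library order in these values was not tested. For FOSB and JUN no library of the 57 reached these levels, the highest being 1.18 and 36.6 CPM. Of all genes tested, 6.39% were highest of all 60 in this library.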

How the results depend on the processing

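The numbers of members called depended on the settings as follows, and the cause was not tested unless the setting itself leaves out libraries. For Menthae Herba at 500 against vehicle (2 members) the number was 1 with the replicate block, no filter on low counts, DESeq2 size factors and DESeq2. Of all genes, 577 were called higher and 592 lower in the main fit. Those numbers were 597 and 612 with the block, 479 and 587 (of 37473 genes) with no filter, and 587 and 580 with the size factors. For Saposhnikoviae Radix (0) the number of members was 2 with the term for the library order, 1 with no filter, 3 with the first 31 libraries and 3 with only the groups compared. All genes called rose as well, from 159 higher and 111 lower to 469 and 532 with the term. They were 247 and 304 (of 37473 genes) with no filter and 823 and 876 with the first 31 libraries. For Saengmaek-san (1) the number of members was 2, 2 and 0 with the order term, the first 31 libraries and only the groups compared. All genes called went from 61 higher and 45 lower to 171 and 205 with the term and 179 and 222 with the first 31 libraries. For Guibi-tang (0) it was 2, 1 and 2 members with the order term, no filter and the first 31 libraries. All genes called were 454 higher and 308 lower in the main fit. They were 845 and 880, 417 and 279 (of 37473 genes), and 956 and 976 with these settings. For Soyo-san (3) it was 2 with the order term, FOSL1 and FOSL2, both lower. For Okbyeongpung-san (2) the number stayed 2 with the term, but FOSL1 and EGR1, both lower, replaced FOSL2 and JUNB. All genes called rose from 536 higher and 505 lower to 865 and 1149 in Soyo-san and from 338 and 247 to 932 and 1222 in Okbyeongpung-san. For Menthae Herba at 500 against 20 (2) it was 1 with no filter and 4 with only the groups compared. All genes called there were 155 and 265 in the main fit and 147 and 305 (of 37473 genes) with no filter. For Guibi-tang at 500 against 20 (0) it was 1 with the replicate block within each library set (FOSL2, edgeR, adjusted p = 0.0184) and 1 with DESeq2. For Soyo-san (0) it was 1 with that block (JUN, 0.0223). For the difference between Saengmaek-san and Guibi-tang (0) it was 1 with that block (FOSL2, 0.0366) and 1 with DESeq2. With that block all genes called rose from 129 higher and 43 lower to 189 and 80 in Guibi-tang. In Soyo-san they rose from 57 and 49 to 76 and 66, and for the difference from 8 and 43 to 11 and 54. The replicate numbers did not pair the libraries of Guibi-tang or Soyo-san, and the Guibi-tang doses were spread unevenly over the library order. Summed over the 6 extracts, 100 against vehicle (4) gave 9 with the order term, 10 with no filter, 8 with only the groups compared and 7 with DESeq2. At 20 against vehicle (7) the sum was 13, 12 and 11 with no filter, only the groups compared and DESeq2. In each of the 6 extracts the number of all genes called also rose, at 100 with the order term and at both doses with no filter. With no filter 37473 genes were tested, against 17256 in the main fit, so the share need not have risen. Saposhnikoviae Radix at 20, for example, went from 123 higher and 48 lower of 17256 to 178 and 129 of 37473. The mean of the 6 extracts (2) gave 4 with the order term, where all genes called rose from 248 higher and 307 lower to 362 and 458. The mean of the 18 groups (2) gave 4 with the order term and 4 with no filter. All genes called there were 380 and 305 of 17256 in the main fit, and 928 and 1190 of 17256 with the term. With no filter they were 340 and 394 of 37473, a smaller share than in the main fit. For Okbyeongpung-san at 20 against vehicle (1) the replicate block gave 2, and neither form of the block changed the number in any other comparison.

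Leaving out 1 library gave 0 to 5 members for 100 against vehicle, 1 to 7 for 20 against vehicle, 1 to 2 for Menthae Herba at 500 against 20 and against vehicle, 0 to 2 for Okbyeongpung-san, 0 to 1 for Saengmaek-san, 2 to 3 for Soyo-san, 1 to 2 for the mean of the 18 groups and 1 to 3 for the mean of the 6 extracts. The numbers of all genes called in these fits are not given. FOSL1 against vehicle took the other sign with the order term in Soyo-san at 500 (-0.30), Okbyeongpung-san at 500 (-0.46) and Soyo-san at 20 (-0.37). Without mitochondrially encoded genes FOSB in the Soshiho-tang 500 library was 4.19 CPM. With TMM scaling 17 of 171 CPM group means moved by more than 1 SD. Of 2997 values with 1 library left out, 79 fell short of the threshold, 8 newly passed and 0 changed sign as a call. Only values called in the main fit could fall short, and most of the 2997 were not called there. The 79 are therefore a far larger share of the calls than of the 2997. FOSB, EGR1 and EGR3 are limited by depth.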
